A study of Rattus norvegicus with 172 samples.

Results

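After complete transection of the rat thoracic spinal cord, 109 of the 14218 genes represented on the arrays were near their normal level in the cord above the gap on day 1 and stood well above it on both day 60 and day 90. They were selected on 4 group means. In untreated rats the mean of the segment rostral to the gap had to be less than 0.5 above the mean of normal cord on day 1, and at least 1.2 above it on day 60 and on day 90, all on the log2 scale. The selection therefore used those arrays and those of normal cord, and the values there are described below without a test. Tests were made on arrays that the selection did not use.

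All injured animals were female Wistar rats aged 2 months whose cord was cut at level T7-8 with removal of a piece 5 mm long. The gap was left empty (lesion control), bridged with an empty tube of chitosan (tube alone), or bridged with such a tube holding chitosan carriers of neurotrophin-3 (NT-3 tube). On days 1, 3, 10, 20, 30, 60 and 90, tissue blocks 5 mm long were taken above (rostral) and below (caudal) the gap, and from day 3 the lesion itself was sampled too. Each injured array held RNA pooled from 4 animals, 3 arrays made a group (2 for tube alone, rostral, on day 10), and 3 arrays of uninjured thoracic cord served as normal. The lesion of tube alone was sampled on day 3 only. P-values measure the spread between pools, and the labels do not say whether rostral and caudal blocks came from the same animals.

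Breakdown of myelin after a cord injury leaves large amounts of cholesterol and sphingolipid debris, which microglia and infiltrating macrophages engulf. TREM2 is a lipid-sensing receptor of these cells, lysosomal hydrolases and the cholesterol carrier NPC2 digest and release the lipid, and ABCA1, PLTP and LCAT act in the export and remodelling of cholesterol as lipoprotein. Fibroblasts of the meninges and the scar supply matrix around the gap, and growth factors such as IGF1 are made by activated phagocytes.

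Several neural markers were bright in the blocks, but not all markers kept their normal level. In the rostral and caudal groups of days 1, 60 and 90 and in normal cord, neuronal Snap25 was between 13.1 and 13.8, Mbp of myelin between 14.6 and 14.8, and Gfap of astrocytes between 13.8 and 14.4 as group means. Other neural markers were lower than in normal cord in rostral lesion control on days 60 and 90. Neuronal Rbfox3 was 8.963 and 9.06 there against 10.4, and neuronal Slc32a1 was 8.39 and 8.603 against 10.0. Mog of myelin was 11.743 and 11.773 against 12.423. The astrocyte markers were mixed on these days. Gfap was 14.34 and 14.407 against 13.807, and Aqp4 was 13.18 and 13.41 against 13.093. Aldh1l1 was slightly lower, at 9.377 and 9.363 against 9.527. In rostral tube alone Rbfox3 was 8.1 and 8.06 on the same days. Some blocks also held muscle and bone transcripts. On day 90 rostral tube alone had means of 9.42 ± 2.12 (SD, n = 3) for Myl1 and 9.33 ± 1.95 for Acta1 of muscle, against 5.84 and 7.26 in normal cord, and 7.33 ± 2.14 for Ibsp of bone against 3.97. Among the arrays the class I MHC gene RT1-CE10 moved between a low level (6.55 in normal cord) and a far higher one in whole groups. On day 30 its mean was 10.95 in rostral lesion control, 10.96 in rostral tube alone and 11.23 in rostral NT-3 tube. It was also 10.82 and 10.42 in rostral tube alone on days 1 and 60, and 10.79 and 10.90 in rostral NT-3 tube on days 1 and 90. Caudal groups were high on the same days. Counts over days that share one RT1-CE10 level are therefore given beside most results where such days exist. The median SD within groups of 3 was 0.17 for the selected genes, against 0.14 over the 5 arrays of a reference RNA.

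Most of the 109 genes fell into a few functional groups, which were assigned by hand after the genes were known. They comprised 30 genes of leukocytes, 12 of the lysosome, 10 of lipid metabolism, 4 interferon-induced genes, 13 of matrix and adhesion, 11 secreted signals and their receptors, 4 genes of sensory neurons or their sheath, 7 of membrane transport and 18 others. Only 18 were on one of the cell type and pathway lists used for comparison. Averaged over days 60 and 90, the genes farthest above normal were the macrophage elastase Mmp12 (2.98), Trem2 (2.84), the matrix proteoglycan Aspn (2.77), the carnosinase Cndp1 (2.76), Stra6l (2.68), Abca1 (2.65), the semaphorin receptor Plxnc1 (2.64), Gdf10 of the TGF-beta family (2.58), Tyrp1 (2.54), Calml4 (2.47) and the monocarboxylate carrier Slc16a7 (2.37). They were followed by Avil (2.36), Smpdl3a (2.34), the T cell co-receptor Cd8a (2.34), Igf1 (2.32), Pltp (2.22), the amine oxidase Aoc3 (2.21), the macrophage receptor Adgre1 (2.17), the OX40 ligand Tnfsf4 (2.15) and the iron reductase Cybrd1 (2.13). The lowest was Calcrl at 1.23.

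The limits cut through a continuum. A further 343 genes met both late limits but were 0.5 or more above normal on day 1. Just inside the day 1 limit were Aqp1, Slc15a3 and Rab27a at 0.48, and just outside it Mtpn at 0.50 and Sting1 and Tec at 0.52. At day 60, Calcrl (1.21), Cd5l (1.22) and Anxa5 (1.23) were just inside, and Tc2n, Scn11a and Tpp1 (each 1.18) were just outside. At day 90, Ccnd2 (1.203), Mylip (1.21) and Sft2d2 (1.22) were inside, and Pttg1ip (1.19), Aoc1 (1.18) and Fgd2 (1.17) were outside. In normal cord 39 of the genes (35.8%) were dimmer than 6.55, below which 40% of cord array values lie, against 25.9% of all genes, and the smallest levels there are compressed by the array. Of 54 other probe sets for 35 of the genes, 21 were less than 0.6 above normal on average over the late days, among them a second probe set of Cd8a, Aoc3, Igf2, Aqp1 and Cd5l, so for 17 genes the late level depended on the probe set chosen.

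Sequences upstream of the start site were found in RefSeq (build GRCr8) for 88 of the 109 genes. They were searched on both strands, over the 250 bases before the start, for 4 short motifs. The CLEAR-like motif GTCACGTG, known from lysosomal genes, was in 2 of 88 (2.27%) against 3.45% of 11701 promoters of genes on the array, and the E-box CACGTG contained in it was in 10 (11.4%) against 8.94%. The PU.1-like motif GAGGAAGT was in 2 (2.27%) against 2.5%, and the IRF-like motif GAAANNGAA in 11 (12.5%) against 7.19%. These shares are a description. One gene is shown for each motif the text returns to, a lysosomal protease, the cholesterol exporter and an interferon-induced gene, with the match in capitals, 5′ to 3′ on the strand of the gene.
Ctsd, CLEAR-like, chr1:206968822-206969071, minus strand: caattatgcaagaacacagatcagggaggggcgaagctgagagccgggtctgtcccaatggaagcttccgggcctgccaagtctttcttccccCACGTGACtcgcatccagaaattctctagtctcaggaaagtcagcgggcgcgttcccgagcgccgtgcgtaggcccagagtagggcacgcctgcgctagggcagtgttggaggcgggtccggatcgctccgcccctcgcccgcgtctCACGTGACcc
Abca1, E-box, chr5:72596474-72596723, minus strand: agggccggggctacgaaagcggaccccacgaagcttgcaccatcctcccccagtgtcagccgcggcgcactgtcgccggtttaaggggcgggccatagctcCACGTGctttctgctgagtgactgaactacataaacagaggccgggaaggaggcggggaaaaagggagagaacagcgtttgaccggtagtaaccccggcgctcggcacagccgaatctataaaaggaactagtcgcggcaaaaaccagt
Ifi44l, IRF-like, chr2:243328473-243328722, plus strand: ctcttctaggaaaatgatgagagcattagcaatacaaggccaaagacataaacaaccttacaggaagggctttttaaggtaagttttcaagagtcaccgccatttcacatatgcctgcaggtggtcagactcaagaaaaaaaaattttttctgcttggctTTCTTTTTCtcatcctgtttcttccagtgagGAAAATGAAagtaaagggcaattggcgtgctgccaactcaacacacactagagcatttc
Ctsd had 2 matches, 157 and 10 bases before the start, Abca1 had 1 at 149 bases, and Ifi44l had 2 at 90 and 59 bases.

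Although low on day 1, the genes did not all wait until late. In rostral lesion control 42 of them were already 1.2 above normal on day 3, 84 on day 10, 86 on day 20 and 100 on day 30. Between 3.31% and 5.97% of all genes stood that far above normal on any of the 7 days. The first day at that level was day 3 for 42 genes, day 10 for 43, day 20 for 8, day 30 for 9 and day 60 for 7, and those 7 were Srebf1, Tnfaip2, Tmem233, Sel1l3, Cxcr1, Sulf1 and Ces1d. The median over the genes was 0.18 on day 1, 1.08 on day 3, 1.53 on day 10, 1.74 on day 30, 1.78 on day 60 and 1.59 on day 90. Their highest mean fell on day 60 for 47, on day 30 for 34 and on day 10 for 13, and 86 were higher on day 60 than on day 90. Thus most of the set was low on day 1, high within 10 days and still high at the end.

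**Figure D1:**
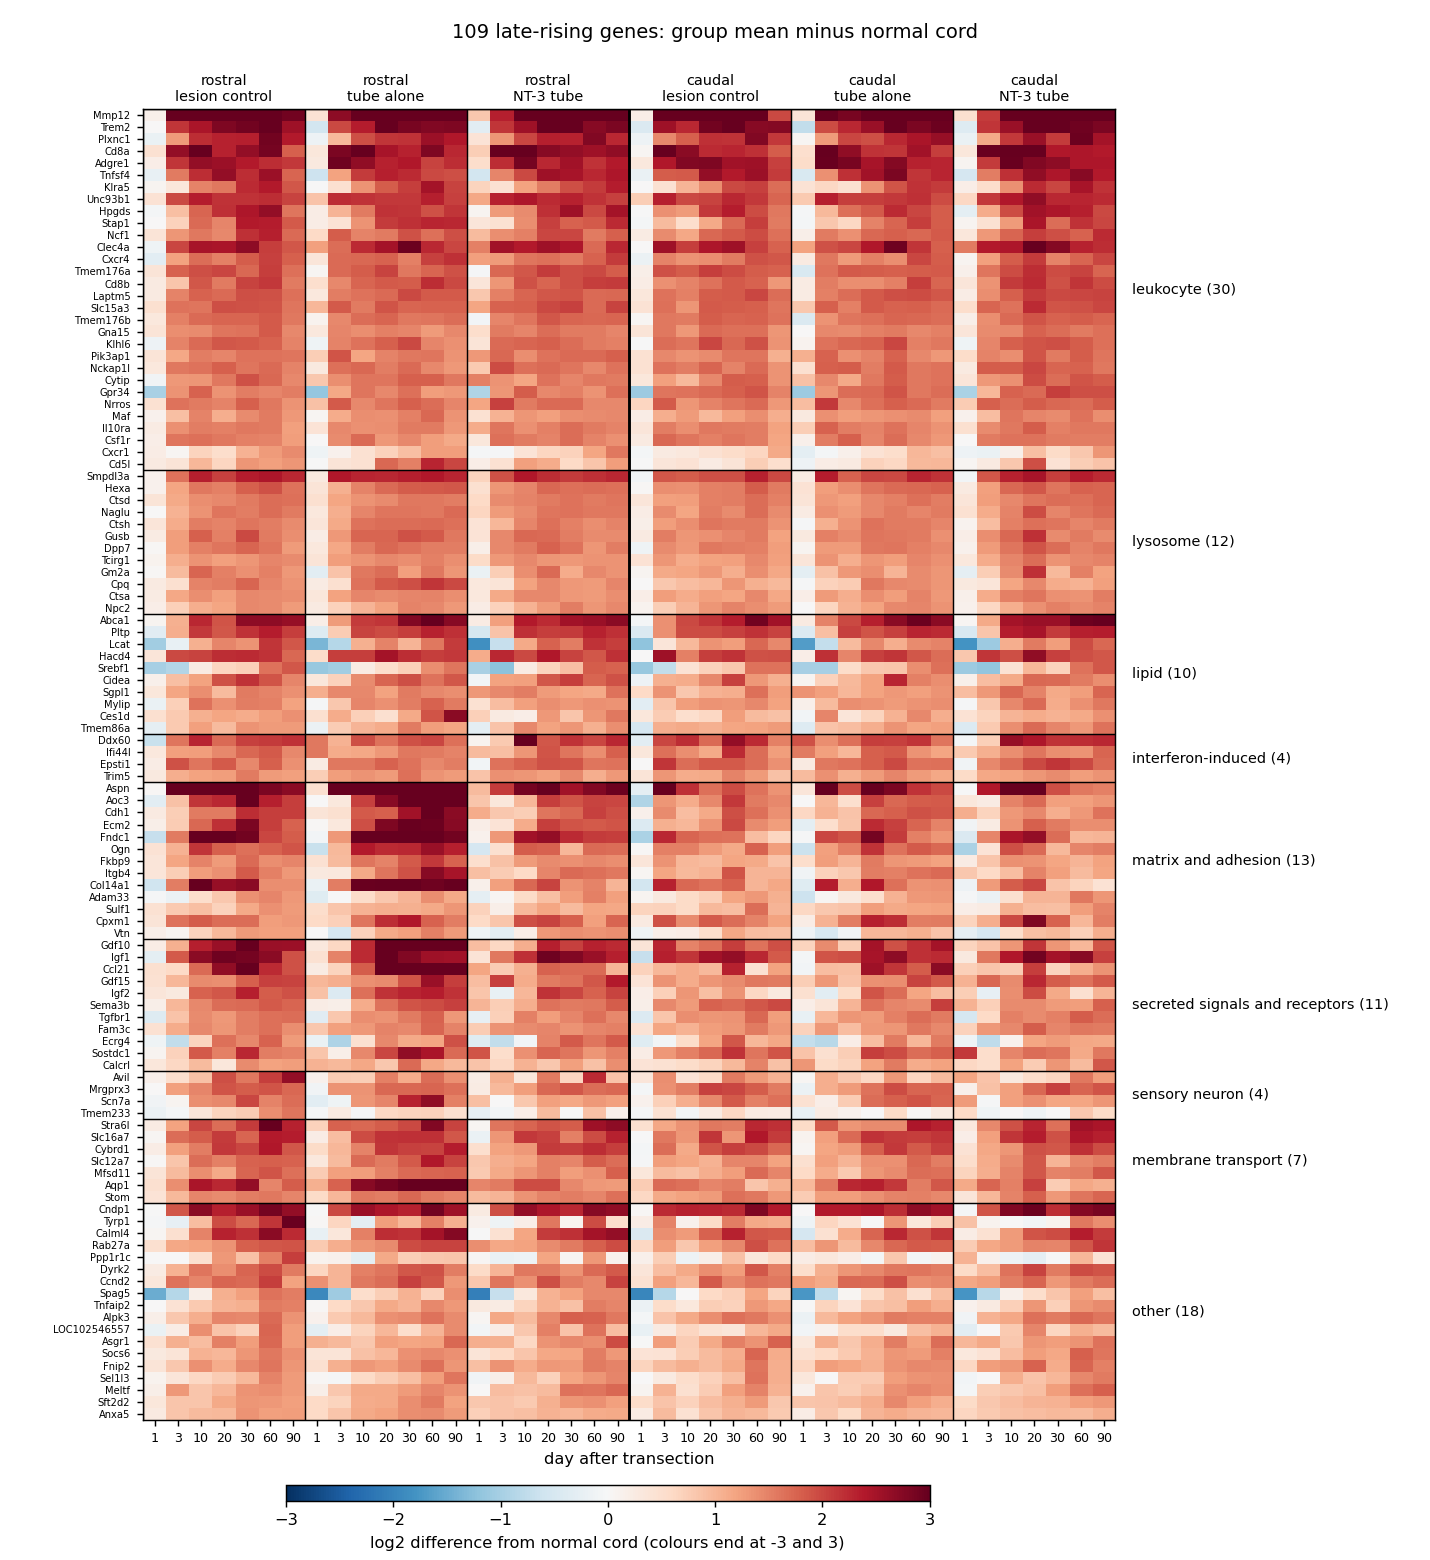
Each row is 1 of the 109 genes, ordered by role, and each column a group mean as the log2 difference from normal cord (colour), by arm, segment and day. Rostral lesion control is pale on day 1 and at least 1.2 on days 60 and 90 by selection, and 84 genes had reached 1.2 there on day 10.

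Between day 3 and days 20 to 30, days the selection did not use, 70 of the 109 genes rose in rostral lesion control and none fell (limma, adjusted p under 0.05), with backgrounds of 7.02% of all genes called higher and 7.33% lower. At an unadjusted p under 0.05 none was lower either, here and in all comparisons of late days with day 1 below except caudal NT-3 tube. The median change was 0.57 over these genes and 0.01 over all genes, and 29 rose at least 2-fold. The chemokine Ccl21 changed most (2.71 ± 0.35 SE, adjusted p = 4.19e-08), followed by Ecrg4 (2.28 ± 0.22), Mmp12 (2.09 ± 0.55, adjusted p = 0.00593) and Tyrp1 (2.09 ± 0.55, adjusted p = 0.00568). Epsti1 (-0.28), Cd8a (-0.16), Meltf (-0.12) and the macrophage growth factor receptor Csf1r (-0.06) had the smallest changes, none of them called. RT1-CE10 was 2.02 higher on days 20 to 30, and with day 20 alone, where it was low, 44 genes rose.

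Trem2 shows the usual shape. Its 3 normal arrays read 7.42, 7.44 and 7.77, and rostral lesion control read 7.26, 7.48 and 7.90 on day 1. It read 9.36, 9.84 and 9.85 on day 3, 10.54, 10.68 and 10.83 on day 60, and 10.00, 10.08 and 10.20 on day 90. All arrays from day 3 on lay above all normal and day 1 arrays, which the selection makes likely for days 60 and 90. In bulk tissue of this kind more cells of a type and more RNA per cell cannot be told apart. Adgre1 had a similar course, with 7.28 to 7.38 in normal cord, 7.42 to 7.72 on day 1, 9.24 to 9.76 on day 3 and 9.28 to 9.59 on day 90. Csf1r reached 10.51 to 10.78 on day 3 and was at 10.28 to 10.32 on day 90, so its level hardly moved after day 3. Mmp12 overshot, from 4.98 to 5.11 on day 1 to 8.97, 10.36 and 11.39 on day 10. Its mean was highest on day 30, and it was back to 7.21, 7.71 and 8.43 on day 90.

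Of the 25 measured genes on the microglia and macrophage list, 5 met the selection (Csf1r, Trem2, Adgre1, Mmp12 and Cd5l), and 11 more met its late limits but were already raised on day 1. The Cd8 pair was among the leukocyte genes. Cd8a read 4.36, 4.69 and 4.77 in normal cord, 4.80, 4.87 and 5.49 on day 1, 6.27, 7.48 and 7.95 on day 3, and 7.41, 7.48 and 7.56 on day 60. Cd8b read 5.30 to 5.95, 5.44 to 6.19, 5.75 to 6.90 and 7.55 to 7.97 in the same groups. The mean of Cd8a was highest on day 10. From day 60 to day 90 Cd8a went from 2.88 to 1.80 above normal and Cd8b from 2.13 to 1.56. The other 20 measured T cell genes, the CD3 chains among them, were not selected and none of them met the late limits with a rise on day 1.

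The lysosomal genes ranged in normal cord from 6.92 (Naglu) to 12.46 (Npc2), and stood between 1.34 (Npc2) and 2.34 (Smpdl3a) above it late. Ctsd, encoding the aspartic protease cathepsin D, read 11.79, 11.82 and 11.85 in normal cord, 12.15, 12.23 and 12.25 on day 1, 12.89, 12.93 and 13.03 on day 3, and 13.38, 13.42 and 13.70 on day 60. Npc2, the cholesterol carrier of the lysosome lumen, went from 12.41, 12.46 and 12.51 in normal cord to 13.81, 13.87 and 13.92 on day 60. For both, each late array lay above each day 1 array, which the selection makes likely. Of the 12 lysosomal genes 10 rose between day 3 and days 20 to 30, by 0.37 ± 0.08 for Ctsd, 0.60 ± 0.05 for Npc2 and 0.46 ± 0.10 for Hexa, a hexosaminidase that degrades gangliosides.

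The lipid genes included some that were below normal first. Lcat, which esterifies cholesterol on lipoproteins, read 10.20, 10.24 and 10.34 in normal cord and 8.92, 9.35 and 9.40 on day 1. It then read 12.33, 12.40 and 12.49 on day 60 and 11.96, 12.15 and 12.23 on day 90. Srebf1, the transcription factor of fatty acid synthesis genes, was still below normal on day 3 at 7.99, 8.10 and 8.43, against 8.88, 8.94 and 9.34 in normal cord, and read 10.86, 10.90 and 10.98 on day 90. Of the 109 genes 27 were below normal on day 1, and 3 of them by 1 or more. These were Lcat (-1.04), Srebf1 (-1.0) and Spag5 (-1.48), so part of their later change is recovery to normal. Between day 3 and days 20 to 30, 7 of the 10 lipid genes rose, by 1.64 ± 0.15 for Lcat, 1.57 ± 0.11 for Srebf1 and 1.22 ± 0.12 for Abca1. Abca1, never clearly below normal, read 9.45, 9.47 and 9.49 in normal cord, 9.45, 9.60 and 9.64 on day 1, and 12.07, 12.10 and 12.31 on day 60.

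**Figure D2:**
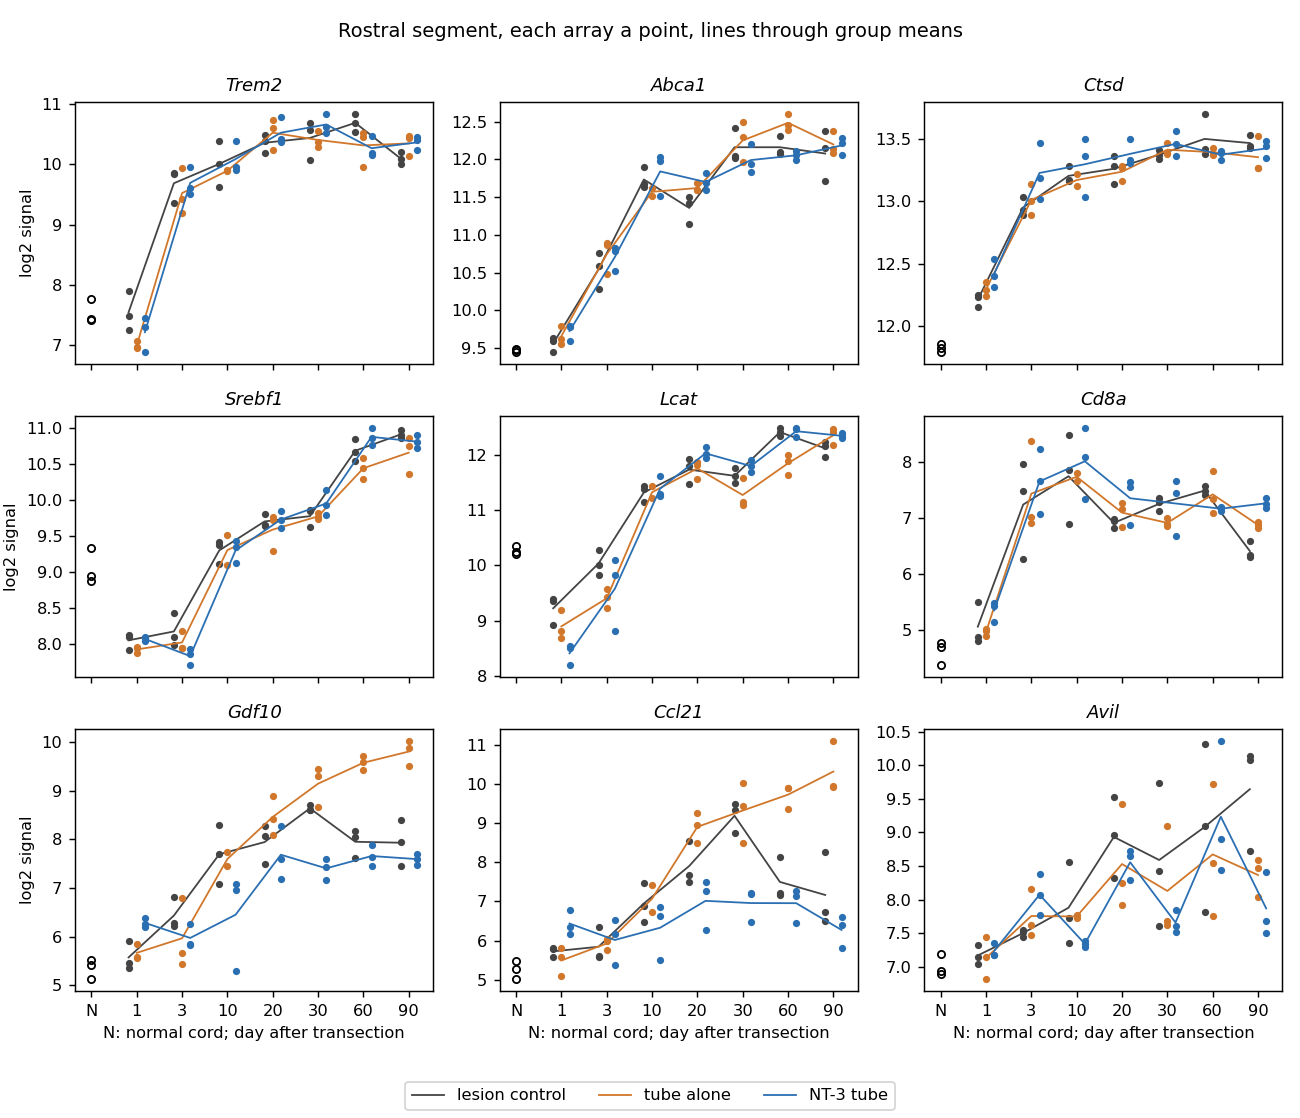
Points are single rostral arrays of 9 genes as log2 signal against day, coloured by arm, with normal cord at N and lines through group means. Trem2, Abca1 and Ctsd run together in the 3 arms, Srebf1 and Lcat dip before they climb, and Gdf10 and Ccl21 part late, with tube alone highest.

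Among secreted factors, the growth factor Igf1 read 9.12, 9.40 and 9.49 in normal cord, 8.71, 8.95 and 9.47 on day 1, 11.55, 12.19 and 12.41 on day 10 and 11.18, 11.29 and 11.30 on day 90. Ccl21, a chemokine of lymphatic tissue that binds CCR7, was at 5.58, 5.79 and 5.81 on day 1, at 8.74, 9.35 and 9.48 on day 30 and at 6.50, 6.74 and 8.26 on day 90. It thus peaked on day 30 and spread widely at the end. It was 1 of 12 genes whose late mean was at least 0.5 below day 30. Gdf10 read 5.13, 5.42 and 5.52 in normal cord, 5.35, 5.46 and 5.91 on day 1, and 7.46, 7.94 and 8.39 on day 90. Matrix genes rose in 8 of 13 between day 3 and days 20 to 30, among them Col14a1, a collagen that binds fibrils (1.14 ± 0.31), and Aoc3 (1.78 ± 0.30). Aspn did not pass the test (0.61 ± 0.60).

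A few genes varied widely between arrays of one group. Avil, encoding advillin of sensory neurons, read 7.82, 9.10 and 10.32 on day 60 and 8.72, 10.08 and 10.13 on day 90. On day 60 the pool highest for Avil was also highest for Tmem233 (7.41), Tyrp1 (8.89) and Ppp1r1c (7.86), and the pool lowest for it was at 5.26, 6.11 and 5.21. The other 19 sensory ganglion genes averaged 0.53 above normal in the pool highest for Avil and -0.20 in the lowest. In caudal NT-3 tube on day 1 a single pool read 10.06 for Avil against 7.09 and 7.39, and its 20 ganglion genes averaged 0.92 above normal, 0.81 without Avil. The part of ganglion tissue in these 4 genes was not tested. Avil rose between day 3 and days 20 to 30 (1.26 ± 0.41, adjusted p = 0.0317), and Tmem233 (0.78) and Ppp1r1c (1.06) did not pass the test.

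Caudal to the gap, on the side the selection did not use, the same course was found for most of the genes. In lesion control 100 of the 109 rose from day 1 to days 60 to 90 and none fell, with backgrounds of 16.2% of all genes called higher and 20.0% lower. The median change was 1.36 against -0.05 over all genes, and the change was above 0 for all 109. RT1-CE10 did not differ by the test there (0.49, adjusted p = 0.0842). Trem2 rose 9.02-fold (log2 3.17 ± 0.19, adjusted p = 9.35e-19), from 6.82 to 7.40 on day 1 to between 9.91 and 10.50 late, with a median of 10.41. The next largest rises were of Spag5 (2.89 ± 0.15), Lcat (2.78 ± 0.16) and Abca1 (2.78 ± 0.17), the first and second of which had been below normal on day 1. All 13 matrix genes, all 12 lysosomal genes and all 4 interferon-induced genes of the set rose, with 29 of 30 leukocyte genes and 9 of 10 lipid genes. The wider lists did not move alike, since 9 of 40 fibroblast, meninges and matrix genes rose and 11 fell, with a median of -0.26, and 5 of 27 interferon response genes rose and 5 fell. The smallest changes were those of Ccl21 (0.13), Aqp1 (0.18), Igf2 (0.25) and Tmem233 (0.30), none of them called.

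Fewer of the genes met the limits on the caudal side, and selection on the rostral arrays favours the rostral count. In caudal lesion control 67 of the genes met all 3 limits of the selection, against 87 of all genes (0.612%) and against 109 rostral by definition. Both late limits were met by 72. Igf2, a growth factor of the meninges, read 11.93, 12.38 and 12.40 on day 90 rostral to the gap and between 9.62 and 11.36 late on the caudal side, and normal cord read 10.32, 10.33 and 10.35. Ccl21 on the caudal side stayed between 5.56 and 6.80 late. These differences between sides in lesion control were not tested, since they rest on arrays the selection used.

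In the arms with tubes the rise was present on both sides. From day 1 to days 60 to 90, 100 genes rose in rostral tube alone (backgrounds 21.9% higher and 26.7% lower, median change 1.48) and 97 in rostral NT-3 tube (20.1% and 24.3%, median 1.11), and none fell in either. On the caudal side 98 rose and none fell in tube alone (backgrounds 17.9% and 21.5%, median 1.35), and 95 rose and 1 fell in NT-3 tube (19.2% and 27.2%, median 1.35). The median over all genes in these 4 comparisons was between -0.04 and 0.00. RT1-CE10 was lower late in all of them, by 1.79, 1.73, 1.93 and 1.41 in that order. With only the late day at the same RT1-CE10 level as day 1, the counts were 100, 96, 97 and 95. Of the 109 genes 85 rose in all 5 comparisons of late days with day 1, counting caudal lesion control, and 9 rose in 4. The joint share over all genes was not counted. For all 5 it can be no larger than 16.2%, the background of caudal lesion control.

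**Figure D3:**
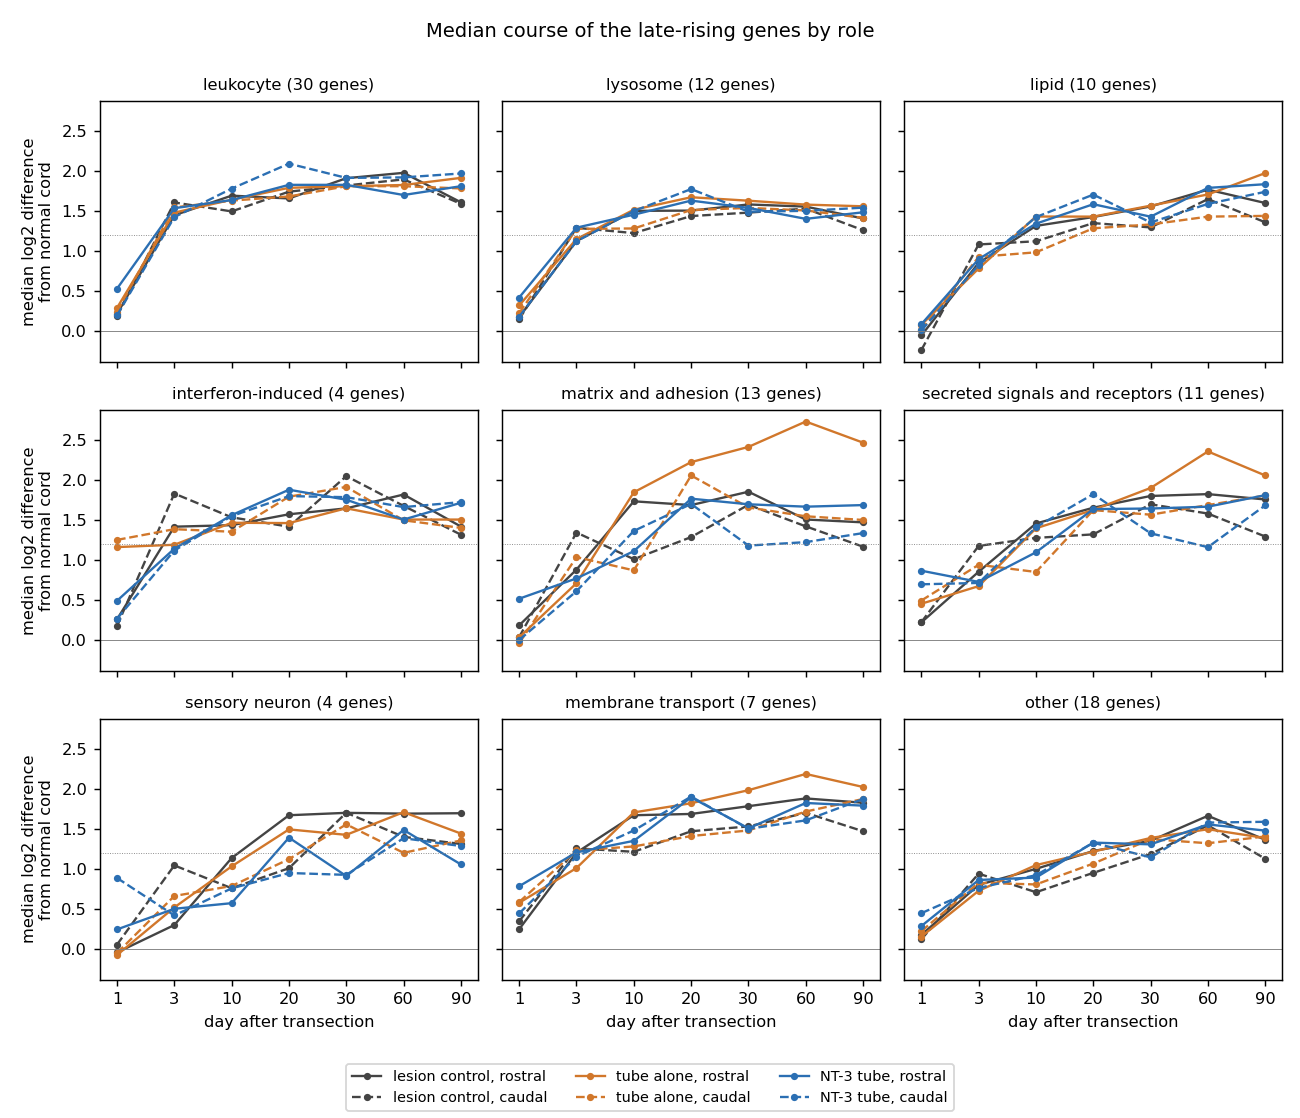
Each panel gives the median log2 difference from normal cord over the genes of 1 role against day, for each arm (colour) and side (line style), with the limit of 1.2 dotted. All 30 leukocyte genes rose in rostral tube alone and in caudal NT-3 tube and 27 in rostral NT-3 tube, and matrix medians are highest in rostral tube alone on the late days.

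Genes of every role rose in each comparison. Matrix genes rose 13 of 13 in rostral tube alone, rostral NT-3 tube, caudal lesion control and caudal tube alone and 11 of 13 in caudal NT-3 tube. Late medians of Trem2 were 10.44 in rostral and caudal tube alone, 10.32 in rostral NT-3 tube and 10.41 in caudal NT-3 tube, all from day 1 values between 6.64 and 7.45. Trem2 rose 10.1-fold in rostral tube alone (log2 3.33 ± 0.16) and 8.54-fold in rostral NT-3 tube (log2 3.10 ± 0.16). All 12 lysosomal genes rose in each of the 5 comparisons, Ctsd by 0.98 to 1.35 log2 and Npc2 by 1.10 to 1.41. Abca1 rose by 2.39 to 3.00, Pltp by 2.53 to 2.83, Srebf1 by 2.52 to 2.82 and Lcat by 2.78 to 3.97. Of the 29 measured genes on the fixed lysosome and lipid list, 4 of which were selected, 23 rose and 3 fell in rostral tube alone, 20 rose and 4 fell in rostral NT-3 tube, and 20 rose and 2 fell in caudal lesion control. On the fixed microglia and macrophage list 17 rose and 3 fell, 13 rose and 7 fell, and 14 rose and 3 fell in the same order.

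A common core met the whole selection in all 6 combinations of arm and side, with 29 genes. It held Trem2, Tnfsf4, Plxnc1, Hpgds, Stap1, Klhl6, Gpr34, Tmem176a, Tmem176b and Cd8b of leukocytes, Hexa, Ctsh, Dpp7 and Npc2 of the lysosome, and Abca1, Pltp, Lcat, Srebf1 and Mylip of lipid metabolism. Mylip encodes the ubiquitin ligase that degrades the LDL receptor. Igf1, Tgfbr1, Ecm2, Ogn, Epsti1, Mrgprx3, Slc16a7, Cndp1, Calml4 and Alpk3 completed it. By contrast 15 genes met it in rostral lesion control only, among them Tyrp1, Igf2, Aqp1, Tmem233, Ppp1r1c, Calcrl, Sgpl1, Unc93b1 and Anxa5. Some were near a limit there, such as Calcrl (1.21) and Anxa5 (1.23) on day 60 and Aqp1 (0.48) on day 1. Since the genes were selected in that course, missing a limit elsewhere is no test of a difference. In rostral NT-3 tube 94 genes met both late limits but 53 were 0.5 or more above normal on day 1, so 47 met the selection (60 of all genes, 0.422%). In rostral tube alone the numbers were 98, 30 and 70 (145 of all genes, 1.02%).

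Individual genes departed from the shared course. No rise was called in any of the 5 comparisons for Tyrp1, Ppp1r1c and Tmem233, which were highest in the same rostral pool as Avil on day 60. Interferon-induced genes, which viral RNA and interferons switch on, rose 4 of 4 in rostral NT-3 tube, caudal lesion control and caudal NT-3 tube, and 2 of 4 in tube alone on either side. None of these 4 is on the list of 27 interferon response genes, of which those called were split or mostly lower, with 9 higher and 9 lower in rostral NT-3 tube, 5 and 5 in caudal lesion control, 3 and 7 in caudal NT-3 tube, 2 and 13 in rostral tube alone and 1 and 16 in caudal tube alone. Ddx60 read 6.97 to 7.41 on day 1 and 7.04 to 7.89 late in rostral tube alone, but 5.62 to 5.87 and 7.51 to 8.68 in rostral NT-3 tube. Its late levels overlapped between the arms and its day 1 levels did not. That list stood 1.52 to 1.98 above normal in the day 1 arrays of rostral tube alone, 1.05 to 1.41 in rostral NT-3 tube and 0.75 to 1.25 in rostral lesion control. The inhibitor of BMP signalling Sostdc1 fell in caudal NT-3 tube (-0.75 ± 0.27, adjusted p = 0.0181), was at -0.46 in rostral NT-3 tube without passing the test, and rose by 1.24 in rostral tube alone.

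Over days 60 and 90 rostral to the gap, 22 of the 109 genes were lower with the NT-3 tube than with tube alone (background 10.3% lower) and 4 were higher (background 13.2% higher), with a median difference of -0.05. Ccl21 was lower by the largest amount (log2 -3.41 ± 0.28, adjusted p = 3.55e-12), at 5.81 to 7.28 with the NT-3 tube and 9.37 to 11.10 with tube alone. The water channel Aqp1 was 6.06-fold lower (-2.60 ± 0.29), at 6.61 to 7.06 against 9.13 to 9.57, and Gdf10 was 4.18-fold lower (-2.06 ± 0.22), at 7.46 to 7.88 against 9.43 to 10.02. For each of these 3 genes the arms did not overlap. Col14a1 (-1.76 ± 0.26), Aspn (-1.42 ± 0.49, adjusted p = 0.0299) and Aoc3 (-1.32 ± 0.24) were lower as well, and 9 of the 13 matrix genes were. Higher with the NT-3 tube were Spag5 (0.38), Tnfsf4 (0.37), Srebf1 (0.29) and Csf1r (0.24). RT1-CE10 differed between the arms on each late day, in opposite directions, with means of 7.23 against 10.42 on day 60 and 10.90 against 7.64 on day 90 (NT-3 tube against tube alone). No late day thus shares a level, and its part was not tested. On day 60 alone 21 genes were lower and 4 were higher, and on day 90 alone 9 and 1.

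Leaving out single pools cut the 4 higher genes to 0 without the first pool of tube alone on day 90, to 1 without the first pool of tube alone or of NT-3 tube on day 60 or the second of NT-3 tube on day 90, and to 2 without the second pool of tube alone or the third of NT-3 tube on day 60. The count of lower genes stayed between 17 and 22. Other genes moved in the same arrays. Of 40 measured genes on the fibroblast, meninges and matrix list, 34 were lower with the NT-3 tube and 1 was higher, and of 27 neuron and synapse genes 22 were higher and none was lower. The fibroblast list stood 2.50 to 2.55 above normal in the tube alone pools of day 60 and 2.26 to 2.46 on day 90, against 1.48 to 1.69 and 1.45 to 1.64 with the NT-3 tube. The mean of the 20 skeletal muscle genes was 2.26 above normal in the first tube alone pool of day 90 and 0.06 to 0.53 in the other 5 late pools, and below normal in all 6 late NT-3 tube pools. Without that first pool 17 of the 109 genes were lower. Of the muscle genes 7 were lower with the NT-3 tube and 1 was higher, and of 16 cartilage and bone genes 8 were lower. The part of these cells in the differences was not tested.

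The change from day 1 was compared between the tube arms as an interaction. It was smaller with the NT-3 tube for 25 of the 109 genes (background 9.26%) and larger for 3 (background 9.6%), with a median difference of -0.25. Ccl21 rose by 4.53 ± 0.35 in tube alone and was not called in NT-3 tube (0.18 ± 0.35), a difference of -4.35 ± 0.49 (adjusted p = 5.85e-08). RT1-CE10 was high in both arms on day 1 (10.79 and 10.82) and on opposite late days. The day 1 levels of Ccl21 in tube alone, 5.09 to 5.82, are among the dim values that the array compresses. Aqp1 (-3.0 ± 0.50), Gdf10 (-2.68 ± 0.39), Aoc3 (-2.14 ± 0.42), Col14a1 (-2.10 ± 0.44) and the sodium channel Scn7a (-2.02 ± 0.37) followed. The larger changes were those of Ddx60 (1.78 ± 0.34, adjusted p = 0.000231), Lcat (0.77) and Ccnd2, a G1 cyclin (0.72). Without the second pool of tube alone on day 1 the 3 became 1, and without the second pool of NT-3 tube on day 1 they became 5.

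**Figure D4:**
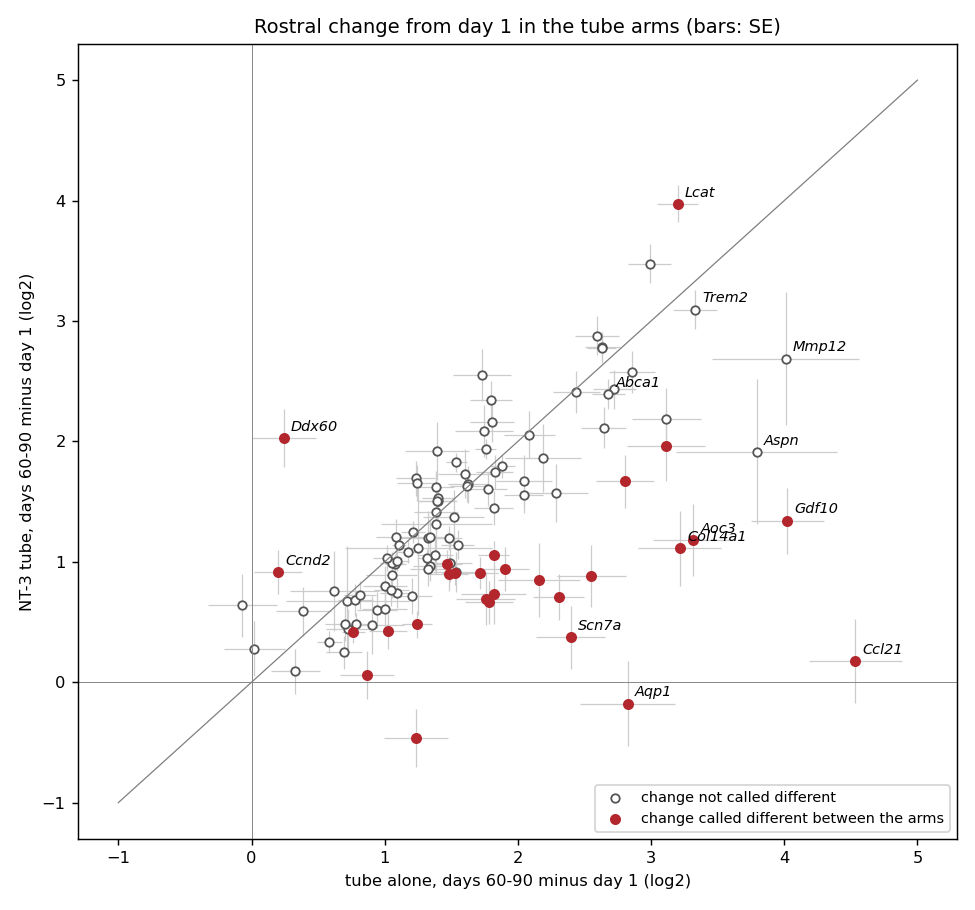
Each point is 1 of the 109 genes, with its log2 change from day 1 to days 60 to 90 in rostral tube alone (horizontal) and rostral NT-3 tube (vertical) and bars of 1 SE. Most lie near the line of equality, and Ccl21, Aqp1 and Gdf10 lie far below it, with changes of 4.53, 2.82 and 4.02 against 0.18, -0.18 and 1.34.

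The sides of the gap were compared in the same way within each tube arm. In tube alone the rostral change was larger for 6 genes (background 1.56%) and smaller for 3 (background 0.788%). Larger were Gdf10 (2.33 ± 0.47, adjusted p = 0.0024), Ccl21 (2.17), Aqp1 (2.10), Fndc1 (1.65), Col14a1 (1.49) and Fkbp9 (0.76). Smaller were Tmem176b (-0.61), Tmem176a (-0.54) and Npc2 (-0.30). The 6 fell to 2 without the third pool of day 1 on either side. They fell to 3 without the first rostral or second caudal pool of day 90. The count thus changed when single pools were left out, which also leaves fewer arrays. On the fibroblast list 9 of 40 genes changed more on the rostral side and none less.

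In NT-3 tube the rostral change was smaller than the caudal for 20 genes (background 2.98%) and larger for 1, Igf2 (1.03, background 3.65%). Of the 20, 12 were leukocyte genes. Over all 30 leukocyte genes the median above normal was 0.53 rostral and 0.19 caudal on day 1. It was 1.70 and 1.92 on day 60, and 1.81 and 1.97 on day 90, so the sides differed on day 1 as well as late. The adaptor Cytip (-1.44 ± 0.25), the chemokine receptor Cxcr4 (-1.10), the NADPH oxidase subunit Ncf1 (-0.94), Laptm5 of leukocyte lysosomes (-0.89, adjusted p = 2.22e-05), Smpdl3a (-0.82) and Plxnc1 (-0.81) had the largest differences. On the microglia and macrophage list 8 of 25 genes changed less on the rostral side. The count of 20 fell to 5 without the second and 8 without the third rostral pool of day 1, to 9 without the second caudal pool of day 1, and to 13 without the first caudal pool of day 60 or the second caudal pool of day 90. Leukocyte genes rose on both sides all the same, 27 of 30 rostral and 30 of 30 caudal.

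Caudal late levels of each tube arm were compared with lesion control, and the tube arms were not compared with each other there. No gene of the 109 was called between NT-3 tube and lesion control in either direction, with backgrounds of 0.106% higher and 0.0703% lower and 15 and 10 of all genes called. At an unadjusted p under 0.05 there were 26 of the 109 and 1776 of all genes, and with array weights in limma 25 were higher and 1 was lower. The median difference was 0.17 against 0.00 over all genes, and 95 of 109 differences were above 0. The ends of the range were Mmp12 (0.70), Cd8b (0.51), Meltf (0.46, adjusted p = 0.0984) and Klra5 (0.45), and Col14a1 (-0.54), Sema3b (-0.40), Sostdc1 (-0.39) and Gdf10 (-0.35). RT1-CE10 was 1.97 higher with the NT-3 tube over both late days. Its means were 7.43 against 7.30 on day 60 and 10.91 against 7.09 on day 90, so the difference lay on day 90. Its part was not tested. Between tube alone and lesion control only Ccl21 was called, higher in tube alone by 1.43 ± 0.33 (adjusted p = 0.0186, background 1.51% higher and 0.682% lower), with 6.10 to 8.57 against 5.56 to 6.80. RT1-CE10 was higher in tube alone too (adjusted p = 2.48e-07), with means of 10.28 against 7.30 on day 60. On day 90 alone, where its means were 7.31 and 7.09, no gene was called in either direction, and on day 60 alone 2 were lower and none was higher. At an unadjusted p under 0.05 over both days there were 9 of the 109, 1 of them lower, and 2806 of all genes, a larger share. The call of Ccl21 was lost without the third pool of tube alone on day 60, or without the second pool of lesion control on day 60 or on day 90, and leaving out single pools gave 0 to 4 higher genes. Mmp12 (1.58, adjusted p = 0.0511), Aqp1 (0.76) and Itgb4 (0.65) were next and did not pass.

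In the lesion itself, where the first samples are of day 3, genes of the set were called in both directions. From day 3 to days 60 to 90 of lesion control 49 of the 109 rose and 36 fell, with backgrounds of 25.8% higher and 34.8% lower and a median change of 0.17. With the NT-3 tube 48 rose and 25 fell (backgrounds 20.9% and 26.2%). In neither arm did a larger share of the set fall than of all genes. In lesion control 11 of 13 matrix genes rose and none fell, 7 of 11 secreted factors and receptors rose and 3 fell, and 4 of 4 sensory neuron genes rose. Of 30 leukocyte genes 6 rose and 16 fell, and of 12 lysosomal genes 3 rose and 7 fell. With the NT-3 tube the counts were 10 rising and 1 falling for matrix, 7 and 1 for secreted factors and receptors, 1 and 0 for sensory neuron, 10 and 13 for leukocyte, and 4 and 3 for lysosomal genes. Differences between roles were not tested.

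The largest rises in the lesion of untreated rats were of Igf2 (4.60 ± 0.16, 24.3-fold), Scn7a (4.42 ± 0.24), Ccl21 (4.33 ± 0.29) and the laminin receptor subunit Itgb4 (3.92). Igf2 read 8.56 to 8.73 on day 3 and 13.06 to 13.44 late. Cd8a fell by 3.38 ± 0.19, from between 8.76 and 10.01 to between 5.96 and 6.59. Stra6l (-1.99), Cd8b (-1.59) and the peptide carrier Slc15a3 (-1.57) fell next most. Trem2 was at its highest early, 10.44 to 10.77 on day 3 against 9.11 to 9.94 late (-1.06 ± 0.17), and Ctsd fell by 0.74 ± 0.08. With the NT-3 tube Mmp12 (4.33), Igf2 (4.31), Cd5l, a macrophage-secreted protein (3.72), and Ccl21 (3.15) rose most, and Cd8a (-2.42), Stra6l (-1.26), Spag5 (-0.97) and Fnip2 (-0.92) fell most. In the lesion of untreated rats 12 of 20 sensory ganglion genes and 12 of 16 Schwann cell genes rose as well, and 20 of 25 microglia and macrophage genes fell. The part of each cell type was not tested.

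**Figure D5:**
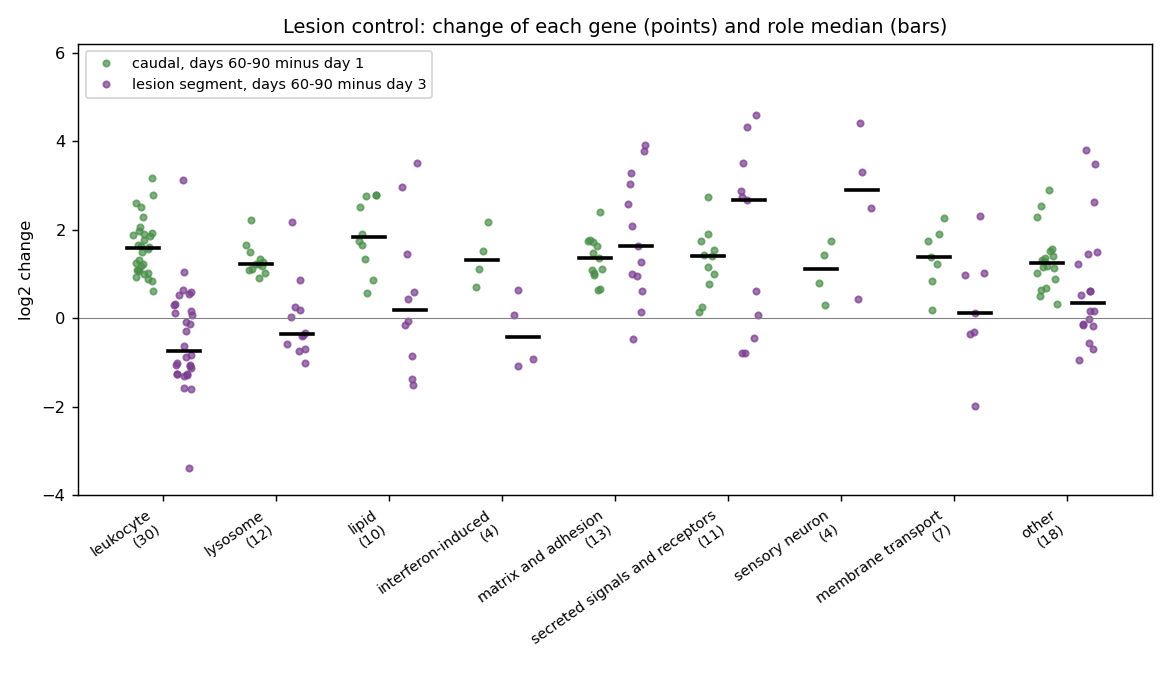
Points are the 109 genes by role, with the log2 change from early to late days in lesion control for the caudal segment (days 60 to 90 minus day 1) and the lesion segment (days 60 to 90 minus day 3), and bars at the role medians. Leukocyte genes have medians of 1.59 caudal and -0.73 in the lesion, and matrix genes 1.37 and 1.64.

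Spag5 and Scn7a can be set beside the gene lists nearest to their function. Spag5 encodes a spindle protein of dividing cells, and its probe set rose by 2.99 in rostral tube alone and 3.48 in rostral NT-3 tube, while of 20 cell cycle genes none rose and 13 and 9 fell. In normal cord it read 8.46, 8.88 and 8.88, and in rostral lesion control 6.92, 7.22 and 7.65 on day 1 and 10.16, 10.31 and 10.37 on day 90. Scn7a, a sodium channel listed with the Schwann cell genes, rose by 2.40 in rostral tube alone and not by the test in NT-3 tube (0.37), on a list of which 7 of 16 rose and 3 fell, and 3 rose and 4 fell. Both genes were chosen for mention after their values were seen.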

How the data were processed

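Per the submitters' processing notes the arrays were processed with Affymetrix Expression Console and RMA, and the deposited table holds log2 values of 31099 probe sets on 172 arrays (2.6 to 15.0, array medians 7.10 to 7.25). Versions were not given in the sources used here. RMA equalises arrays and compresses low signals, and precision is limited by how many arrays there are. Each gene took the probe set whose mean over 167 cord arrays was highest, among 20832 probe sets with 1 symbol in an annotation of the platform that can be old (436 had several, 9831 none listed), which gave 14218 genes.

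limma (lmFit, contrasts, eBayes) was fitted to all genes, with 1 mean per group and no filter, for rostral, caudal and lesion arrays apart, each with normal cord, and for both sides jointly. Late and early days were averaged. The Benjamini-Hochberg adjustment ran over all genes, separately for the 14 comparisons (threshold 0.05). Selected genes and comparison lists were chosen with earlier results of these data known. Genes were named by rule: the 20 farthest above normal late, those on a fixed list, the 4 largest and 4 smallest changes and up to 6 calls a direction in a comparison, the 3 nearest each limit on either side, RT1-CE10 and RT1-CE12, and markers. Exceptions, such as examples from roles, were chosen after their values were seen. In simulated data for caudal lesion control (14218 genes), 70% of changes of 0.5 log2 and 98% of changes of 1 log2 were recovered. For rostral lesion control the shares were 72% and 96%, and for its lesion segment 76% and 90%. For the difference between sides in tube alone they were lower at 0.5 log2, with 48% and 89%.

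Same-numbered rostral and caudal arrays had a median correlation of deviations of 0.107, with 4 of 21 groups above 0.1 in every pair, so numbers were not taken to pair arrays. Alternatives were a dim filter, a second quantile normalization, trend and robust prior, array weights, a replicate block, contrast arrays only, probe set means, single days and leaving out each array. R 4.3.3, limma 3.58.1, Python 3.11.15, pandas 2.3.3, numpy 2.4.6 and matplotlib 3.10.9 were used.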

Additional observations from a re-analysis of the deposited data

Results flagged for a closer look

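These results stand out because the change from day 1 to days 60 to 90 differed between groups by the interaction test in limma (adjusted p under 0.05), for up to 6 genes a direction in each comparison. In tube alone the rostral change exceeded the caudal one for Gdf10 (2.34), Ccl21 (2.17), Aqp1 (2.1), Fndc1 (1.65), Col14a1 (1.49) and Fkbp9 (0.76), and fell short of it for Tmem176b (-0.61), Tmem176a (-0.54) and Npc2 (-0.3), all as log2 differences. In NT-3 tube the rostral change exceeded the caudal one for Igf2 (1.03) and fell short of it for Cytip (-1.44), Cxcr4 (-1.1), Ncf1 (-0.93), Laptm5 (-0.88), Smpdl3a (-0.82) and Plxnc1 (-0.81).

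On the rostral side the change was smaller with the NT-3 tube than with tube alone for Ccl21 (-4.35), Aqp1 (-3.0), Gdf10 (-2.68), Aoc3 (-2.14), Col14a1 (-2.1) and Scn7a (-2.02), and larger for Ddx60 (1.78), Lcat (0.77) and Ccnd2 (0.72). The 3 comparisons share arrays of the tube arms and are not independent.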

How the results depend on the processing

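The comparisons of late days with day 1 on either side of the gap stayed within 1.5 times of the reported counts under every alternative run. Leaving out single arrays gave 100 to 102 genes higher in rostral tube alone, 91 to 98 in rostral NT-3 tube, 99 to 101, 94 to 99 and 85 to 96 in caudal lesion control, tube alone and NT-3 tube, and 51 to 70 in rostral lesion control between day 3 and days 20 to 30, where day 20 alone gave 44. In the lesion the ranges were 45 to 49 higher and 33 to 36 lower in lesion control, and 46 to 50 and 21 to 27 with the NT-3 tube. The number of members of the set was 97 to 115 without single arrays, 169 with a late limit of 1 and 57 with one of 1.5.

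Comparisons between arms and sides were less stable. For the rostral tube arms on late days leaving out arrays gave 0 to 4 higher and 17 to 22 lower, a second quantile normalization 2 higher, and day 90 alone 1 higher and 9 lower. For their changes from day 1 the ranges were 1 to 5 larger and 17 to 30 smaller, with 6 and 41 under array weights, 6 larger from the contrast's arrays only and 15 smaller on day 90 alone. For tube alone between sides they were 2 to 9 larger and 1 to 4 smaller, with 16 and 7 under array weights, 13 and 1 from the contrast's arrays only, and 1 and 1 on day 90. For NT-3 tube between sides they were 0 to 3 larger and 5 to 22 smaller, with 7 and 41 under array weights. The larger ones numbered 2 with the dim filter, 3 from the contrast's arrays only, 0 with probe set means and 0 on day 60, and the smaller ones 8 on day 60 and 13 on day 90. For caudal NT-3 tube against lesion control leaving out arrays gave 0 in each direction, and array weights 25 higher and 1 lower. Day 90 alone, where RT1-CE10 differed between the arms, gave 5 higher. For caudal tube alone against lesion control the ranges were 0 to 4 higher and 0 to 0 lower. There 0 were higher with the dim filter, 3 after quantile normalization, 7 with array weights, 2 with probe set means, and 0 on day 60 and on day 90 alone, with 2 lower on day 60. The cause was not tested. The array weights of the joint fit of both sides stopped before full convergence.

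With the replicate number as a block 100, 97, 100, 98 and 94 genes were higher in the comparisons of rostral tube alone, rostral NT-3 tube, caudal lesion control, caudal tube alone and caudal NT-3 tube with day 1, and 2 were larger rostral in NT-3 tube, so the block moved no other count by over 1.5 times.

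Changes of sign occurred only in values that were not called. With day 30 alone Cd8a was at 0.013 and Meltf at 0.047, and with array weights Meltf was at 0.044 and Csf1r at 0.048 in rostral lesion control. Calcrl in rostral tube alone was at -0.005 with array weights and -0.07 on day 90, and Ccnd2 at -0.083 on day 90. Sgpl1 was at -0.041 with array weights and -0.16 on day 60 in rostral NT-3 tube, and at 0.00 on day 90 in caudal tube alone. Ddx60 differed by -0.017 between the tube arms on day 60, and Ccl21 was at -0.25 on day 60 in caudal lesion control. In caudal NT-3 tube Scn7a was at 0.008 after quantile normalization, 0.052 with array weights and 0.03 on day 90, and Aqp1 at 0.14 with array weights, 0.07 with probe set means and 0.007 on day 60. Against caudal lesion control Mmp12 was at -0.023 with the NT-3 tube on day 60 and Spag5 at 0.23 with tube alone on day 90. Without single arrays the ranges were -0.64 to 0.20 for Cd8a and -0.13 to 0.002 for Csf1r in rostral lesion control, -0.26 to 0.063 for Ifi44l and -0.057 to 0.10 for Calcrl in rostral tube alone, -0.25 to 0.23 for Cytip and -0.003 to 0.25 for Sgpl1 in rostral NT-3 tube, and -0.12 to 0.40 for Ccl21 in caudal lesion control. In caudal tube alone they were -0.81 to 0.22 for Ifi44l, -0.45 to 0.017 for Calcrl and -0.27 to 0.16 for Sgpl1, and in caudal NT-3 tube -0.83 to 0.56 for Ppp1r1c, -0.24 to 0.25 for Scn7a and -0.28 to 0.26 for Aqp1.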
